A study of Mus musculus with 2 samples.

Results

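Mitosis genes were followed across the progenitor types of mouse bone marrow: 40 genes of 32285 in the deposited matrices, each matched by its symbol to 1 row. They were named by symbol as known mitosis genes, and they cover the cyclins that drive mitosis, the centromere and kinetochore, the spindle checkpoint, the spindle and its kinases, and the machinery that ends cell division. Levels of these genes were compared between 2 genotypes, over all sorted cells and within cells that carried the RNA of a stem cell or lineage gene.

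A cell enters mitosis when cyclin B switches on the kinase Cdk1. Microtubules of the spindle then attach to kinetochores built on the centromere, a checkpoint holds the cell until every chromosome is attached, and the anaphase-promoting complex has cyclin B destroyed so that the cell can divide. Most genes of this machinery are transcribed in the G2 and M phases of the cell cycle and fall again after division, so that their RNA marks dividing cells. In marrow, haematopoietic stem cells divide rarely and committed progenitors divide often.

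The series asks, by its title, about myeloid bias in the differentiation of stem cells and the proliferation of their progeny. IκB proteins hold NF-κB, a family of transcription factors of inflammation, inactive. RNA was counted in single LSK cells sorted from leg bone marrow of young mice. This fraction lacks lineage markers, carries Sca-1 and much Kit, and holds stem cells and early progenitors. Wild-type (WT) cells and cells of IκB-deficient mice, named IkBKO in the deposited cell table, were tagged with hashing antibodies and run together, so that each of the 2 libraries held both genotypes. Both groups are native, with no treatment named in the labels. Which IκB genes were altered, in which cells, and how many mice were pooled is not stated in these sources.

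Library 1 held 3721 WT and 3962 IkBKO cells, and library 2 held 4963 WT and 5383 IkBKO cells that passed the deposited quality call. These 18029 cells form 4 pools, 1 per genotype and library, with 42165571 to 62834572 UMIs (distinct RNA molecules) each. IkBKO cells were deeper: the median WT cell of library 1 held 9963 UMIs and the median IkBKO cell 13709, against 6983 and 9641 in library 2. Among the passing barcodes, 39 occurred in both libraries, which come from separate droplet runs. As nothing in the labels says that the pools were separate groups of mice beyond the replicate number, the p-values cover just the spread from pool to pool, which may be technical.

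Cells were assigned to 6 gates by raw UMIs of single genes. The Mecom gate (at least 1 UMI of Mecom, a stem cell transcription factor) held 5319 cells. The Flt3 gate (at least 1 UMI of the receptor Flt3 and 0 of Dntt) held 5117, and the Dntt gate (at least 3 UMIs of Dntt, the lymphoid DNA polymerase) held 2501. The Mpo gate (at least 20 UMIs of the granule enzyme myeloperoxidase) held 2362, the Pf4 gate (at least 3 UMIs of platelet factor 4) held 1159, and the Car1 gate (at least 5 UMIs of carbonic anhydrase 1, an early erythroid gene) held 538. Gates overlapped: 9689 cells passed exactly 1 gate, 3529 passed several and 4811 passed none. The 6 erythroid markers summed to between 2753 and 3198 CPM (the UMIs of a gene scaled to one common total in every pool) in the 4 pools of the Car1 gate, against 32.2 to 244.6 CPM over all LSK cells. The 6 granulocyte-monocyte markers summed to between 9142 and 16307 CPM in the Mpo gate, against 844 to 8735 CPM over all cells. The 6 lymphoid markers summed to between 1884 and 2057 CPM in the Dntt gate, against 220 to 670 CPM over all cells, and the 6 megakaryocyte markers to between 1278 and 4023 CPM in the Pf4 gate, against 117 to 320 CPM. The 7 stem cell markers were higher in the Mecom gate than over all cells in each pool, with 393 to 1010 CPM against 117 to 697 CPM. In the Flt3 gate, where Dntt is 0 by definition, the 6 lymphoid markers were lower than over all cells in each pool. They summed to between 195 and 361 CPM there. Each list holds the gene that sets its gate. The WT pools of library 2 were small, with 40 cells in the Mpo gate and 9 in the Car1 gate.

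The limits of the gates fell on a continuum. Cells with 2 Dntt UMIs, just outside, held 2332 CPM of the 40 genes together, and cells with 3, just inside, held 2481. For Mpo the values were 3003 CPM at 15 to 19 UMIs and 3164 CPM at 20 to 24. For Pf4 they were 2561 CPM at 2 UMIs and 2713 CPM at 3, and for Car1 1558 CPM at 4 UMIs and 2134 CPM at 5.

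Promoters of mitosis genes are known for a short element, the cell cycle genes homology region (CHR), often accompanied by CCAAT boxes, through which the DREAM complex and B-Myb act. Of the 40 genes, 36 matched at least 1 window of 250 bases before to 50 bases after the start in the RefSeq table (assembly GRCm38.p6, the build mm10). The CHR was searched as TTTGAA or TTCGAA and the CCAAT box as CCAAT, each on both strands, where matches of the 2 kinds can share a base at their edges. CHR letters were found in 27 of the 36 genes, against 21.7% of all 27025 genes of the table. CCAAT letters were found in 27 of 36, against 41.1%, and both in 23 of 36, against 8.61%. A match is a run of letters and not a measured binding site. The 5 promoters below are examples, from the kinase that starts mitosis to the activator that ends it, and do not cover every role. All of them are among the 23 genes with letters of both kinds. Each line gives the 100 bases before the start, 5′ to 3′ along the gene, with the matches in capitals (ATTGG and TTCAAA are matches on the other strand).
Cdk1, chr10:69352913-69353012, minus strand: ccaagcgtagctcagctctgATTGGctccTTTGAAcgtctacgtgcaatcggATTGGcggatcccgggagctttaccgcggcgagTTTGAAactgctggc
Ccnb2, chr9:70421555-70421654, minus strand: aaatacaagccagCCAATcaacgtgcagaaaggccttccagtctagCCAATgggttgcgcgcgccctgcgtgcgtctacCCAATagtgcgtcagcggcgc
Top2a, chr11:99024190-99024289, minus strand: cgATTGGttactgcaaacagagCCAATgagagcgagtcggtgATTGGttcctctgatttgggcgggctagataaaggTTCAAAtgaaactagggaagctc
Cdc20, chr4:118437344-118437443, minus strand: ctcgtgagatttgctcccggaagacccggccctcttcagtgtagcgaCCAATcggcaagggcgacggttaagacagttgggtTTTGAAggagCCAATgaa
Kif11, chr19:37376282-37376381, plus strand: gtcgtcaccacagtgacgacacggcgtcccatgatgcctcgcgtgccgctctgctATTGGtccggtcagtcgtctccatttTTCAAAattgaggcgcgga
In Cdk1, Top2a, Cdc20 and Kif11 a CHR match lay within these bases, with at least 1 CCAAT box upstream of it. In Ccnb2 the printed bases hold 3 CCAAT boxes, and the nearest CHR letters began 5 bases after the start.

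Over all LSK cells, mitosis genes were higher in IkBKO than in WT cells. The 40 genes together took 2026 CPM of the WT and 2550 CPM of the IkBKO pool in library 1, and 2591 and 3288 CPM in library 2. The sum was thus 1.26-fold and 1.27-fold higher in IkBKO cells, and the IkBKO pool of library 1 lay just below the WT pool of library 2. Of the 40 genes, 25 were called higher and 1 lower (edgeR's quasi-likelihood test with library as a block, Benjamini-Hochberg adjusted p of at most 0.05 over all 14742 genes tested). Of all tested genes, 7.13% were called higher and 6.19% lower. The median log2 fold change of the 40 genes was 0.40, against -0.01 over all tested genes. In both libraries 38 of the 40 were higher in IkBKO cells, and for 18 the genotypes did not overlap. Neither count was made over all tested genes, so both are a description. An unadjusted p of at most 0.05 in the edgeR test was reached by 38 of the 40, against 33.0% of all tested genes.

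Cyclins, Cdk1 and its small partner Cks2 rose without exception. In library 1 Ccnb1 (cyclin B1) went from 26.7 CPM in WT to 46.1 CPM in IkBKO cells, and in library 2 from 32.3 to 49.9 CPM. Both IkBKO pools lay above both WT pools, and the log2 fold change was 0.80 ± 0.09 (SE, n = 2 pools per genotype, edgeR adjusted p = 0.00737), the largest of the 40 genes. Ccnb2 rose by a log2 fold change of 0.57, Ccna2 (cyclin A2, active from S phase) by 0.59, Cdk1 by 0.50 and Cks2 by 0.53, each with no overlap between genotypes.

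All 3 members of the chromosomal passenger complex in the list, which corrects faulty attachments to the spindle, rose too. The kinase Aurkb stood at 43.4 and 61.4 CPM in WT and IkBKO cells of library 1 and at 44.5 and 65.5 CPM in library 2. Its log2 fold change was 0.62 ± 0.07 (SE, edgeR adjusted p = 0.00807). Birc5 (survivin) stood at 96.6 and 145.4 CPM in library 1 and at 113 and 163 CPM in library 2, a log2 fold change of 0.65. Cdca8 (borealin) rose by 0.52, with its genotypes overlapping.

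Centromere and kinetochore genes moved both ways. Cenpa, the histone H3 variant that marks the centromere, went from 80.1 CPM in WT to 125 CPM in IkBKO cells in library 1, and from 110.4 to 168 CPM in library 2 (log2 fold change 0.72 ± 0.08 SE, edgeR adjusted p = 0.00759). The kinetochore motor Cenpe rose by 0.44 and Knstrn, a kinetochore and spindle protein, by 0.47. Cenpf, Nuf2 and Ndc80 did not pass, at log2 fold changes of 0.17, 0.24 and 0.32.

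Hjurp, the chaperone that loads Cenpa onto the centromere, fell. In library 1 it went from 86.3 CPM in WT to 57.9 CPM in IkBKO cells, and in library 2 from 112.7 to 87.1 CPM. Each IkBKO pool lay below the WT pool of its library, while the groups overlapped across libraries, and the log2 fold change was -0.38 ± 0.08 (SE, edgeR adjusted p = 0.0338). Cenpa and Hjurp, a histone and its own chaperone, were thus called in opposite directions.

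Of the kinases and spindle assembly factors, 4 of 10 were called. Plk1 (polo-like kinase 1) rose by a log2 fold change of 0.67, Tacc3, a microtubule stabiliser, by 0.63, Aurka (aurora A) by 0.53 and Tpx2, its activator, by 0.38. Plk1 stood at 16.7 and 25.5 CPM in library 1 and at 20.3 and 29.5 CPM in library 2. The other 6, Hmmr, Nusap1, Ckap2, Ckap2l, Psrc1 and Gtse1, had log2 fold changes between 0.24 and 0.42. Nusap1, at an edgeR adjusted p of 0.0516, lay just outside the threshold.

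Among the kinesins, the motor proteins of the spindle, Kif2c rose by 0.64 and Kif11 by 0.34, and Kif20b did not pass at 0.28. Kif23, a motor of the midbody in cytokinesis, stood at 38.9 and 39.8 CPM in library 1 and at 64.4 and 52.7 CPM in library 2, a log2 fold change of -0.04 that did not pass. Of the checkpoint kinases, Bub1 and Bub1b rose by 0.38 and 0.39, and Ttk did not pass at 0.34.

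Genes of mitotic exit and division followed. Ube2c and Cdc20, an enzyme and the activator of the anaphase-promoting complex, rose by 0.55 and 0.51. Cdca3, a trigger of mitotic entry, stood at 43.1 and 70.3 CPM in WT and IkBKO cells of library 1 and at 48.7 and 71.1 CPM in library 2 (log2 fold change 0.72 ± 0.09 SE, edgeR adjusted p = 0.00884). Cdca2 did not pass at 0.27. Anln (anillin, of the cleavage furrow) rose by 0.52, and Ect2, which activates RhoA at the furrow, did not pass at 0.28. Top2a, the topoisomerase that untangles chromosomes, and the proliferation marker Mki67 rose by 0.37 and 0.38.

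**Figure D1:**
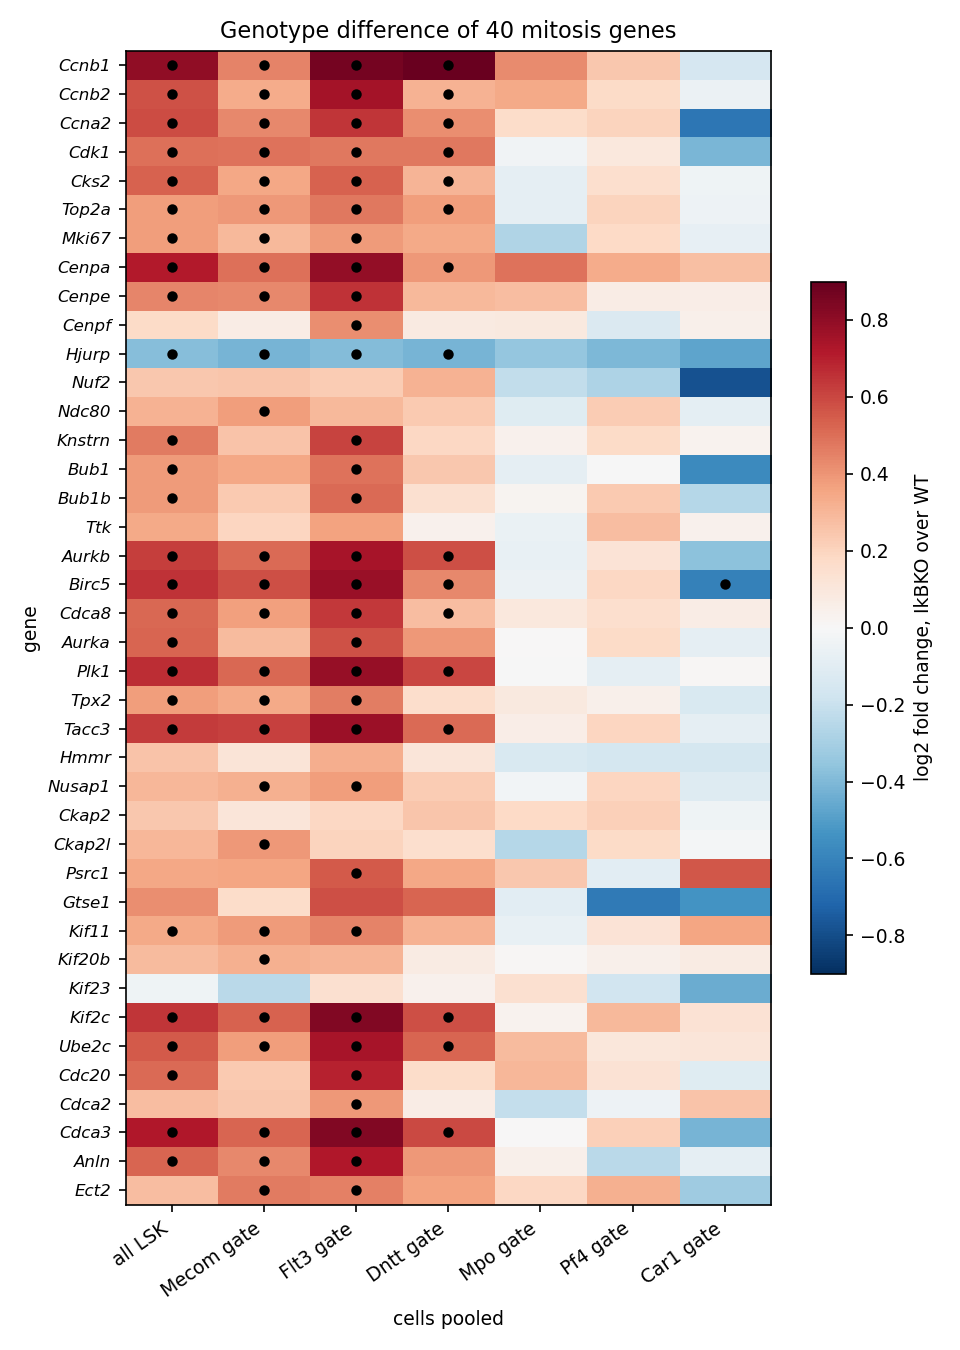
Log2 fold change of each of the 40 mitosis genes (rows), IkBKO over WT, over all LSK cells and within the 6 gates (columns); red is higher and blue lower in IkBKO cells, and dots mark genes with an edgeR adjusted p of at most 0.05. The first 4 columns are mostly red with dots and hold 1 blue row with dots, Hjurp, while the Mpo, Pf4 and Car1 columns are pale or mixed and hold 1 dot, Birc5 in the Car1 gate.

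Genes on the opposite strand overlap Ccna2, Knstrn, Cdca8, Tacc3, Nusap1, Ckap2l, Ube2c and Cdc20 in the GENCODE annotation of the build. Whether strand was used in counting is not stated in these sources, so these 8 are less certain. The 4 pools with the block left 1 residual degree of freedom per gene. Without the block, no member was called over all LSK cells, and neither was any other of the 14742 genes tested. An unadjusted p of at most 0.05 was then reached by 19 members and by 9.56% of all tested genes. With 1 pool left out (a fit that can only be made without the block), the median log2 fold change of the 40 genes ranged from 0.31 to 0.55.

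The cell mix differed between genotypes in the same libraries. Cells in the Mpo gate alone made up 5.29% of WT and 22.1% of IkBKO cells in library 1, and 0.504% and 3.68% in library 2. Cells in the Car1 gate alone made up 1.18% and 5.93%, and 0.101% and 3.44%. Cells in the Dntt gate alone made up fewer of the IkBKO cells, 16.8% and 5.78% in library 1 and 15.7% and 8.08% in library 2. When each pool was weighted to the same mix of the 6 single gates, cells of several gates and cells of none, the log2 ratio of the summed level went from 0.33 to 0.14 in library 1 and from 0.34 to 0.23 in library 2. After that weighting 33 of the 40 genes were higher in IkBKO cells in both libraries, against 38 before. Ccnb1 kept log2 ratios of 0.44 and 0.47, and Hjurp -0.55 and -0.36. In bulk sums of this kind, fewer expressing cells and less RNA per cell cannot be told apart, and counts per cell are given further on. Markers of mature neutrophils also differed: the 6 genes, none at 0, summed to 1344 and 1160 CPM in the WT pools and to 167 and 201 CPM in the IkBKO pools. Without the 111 cells in which markers of mature lineages held at least 1% of UMIs, 27 mitosis genes were called higher and 1 lower. Of all 14693 genes tested then, 1206 were called higher and 1014 lower.

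Within the Mecom gate, the one closest to stem cells, 25 of the 40 genes were called higher in IkBKO cells and 1, Hjurp, lower, where 6.2% of all tested genes were called higher and 4.37% lower. The summed level was 1981 and 2385 CPM in WT and IkBKO cells of library 1 and 2839 and 3493 CPM in library 2. Birc5 stood at 83.9 and 121.6 CPM in library 1 and at 110.5 and 161.2 CPM in library 2, with a log2 fold change of 0.58 ± 0.07 (SE, edgeR adjusted p = 0.000473). Cenpa rose by 0.50, Cdk1 by 0.49, Tacc3 by 0.62 and Cdca3 by 0.52. None of the 3 checkpoint genes passed here. Markers of other cell types also moved within this gate. In library 1 the granulocyte-monocyte markers went from 1471 CPM in WT to 3513 CPM in IkBKO cells and in library 2 from 487 to 1552 CPM. The megakaryocyte markers went from 175 to 295 CPM and from 145 to 335 CPM, and the stem cell markers from 630 to 393 CPM and from 1010 to 675 CPM. None of these lists had a gene at 0, and their part in the mitosis values was not tested. The neutrophil markers stood at 136.5 and 27.1 CPM in the WT pools and at 53.7 and 131.9 CPM in the IkBKO pools, so they did not split by genotype. Among cells in the Mecom gate alone, 10 genes were called higher, where 333 of all 11905 tested genes were. With every cell thinned to 5000 UMIs, 14 were called higher and 2 lower, where 594 and 426 of all 11881 were. The median log2 fold change of the 40 genes here was 0.35, against 0.16 without the WT pool of library 1 and 0.06 without the IkBKO pool of library 2.

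Within the Flt3 gate, set by Flt3 RNA without Dntt RNA, 30 genes were called higher and 1, Hjurp, lower. Here 10.9% of all tested genes were called higher and 8.98% lower. Of the 5117 cells of this gate, 1706 also passed the Mecom gate and 877 the Mpo gate. The summed level was 1926 and 2340 CPM in library 1 and 2335 and 3403 CPM in library 2, so that the genotypes were 1.21-fold and 1.46-fold apart. Cdca3 stood at 41.8 and 65.5 CPM in library 1 and at 42.4 and 75.0 CPM in library 2 (log2 fold change 0.83 ± 0.10 SE, edgeR adjusted p = 5.72e-05). Both IkBKO pools lay well above both WT pools. Ccnb1 rose by 0.86, Birc5 by 0.78, Ccnb2 by 0.75 and Cenpa by 0.79. All 4 genes of the joint list of anaphase-promoting complex and cell division cycle associated genes were called, including Cdca2. Both cytokinesis genes were called too. Within this gate, granulocyte-monocyte markers went from 2948 CPM in WT to 7335 CPM in IkBKO cells in library 1 and from 742 to 2715 CPM in library 2. Stem cell markers went from 436 to 127 CPM and from 869 to 379 CPM. Neither list had a gene at 0, and their part was not tested.

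Within the Dntt gate, on the lymphoid path, 15 genes were called higher and 1, again Hjurp, lower, against 6.81% and 5.95% of all tested genes. The summed level was 1810 and 2402 CPM in library 1 and 3479 and 3692 CPM in library 2, so that the libraries differed more than the genotypes. Ccnb1 stood at 20.4 and 43.4 CPM in library 1 and at 41.9 and 64.4 CPM in library 2, a log2 fold change of 0.89 ± 0.12 (SE, edgeR adjusted p = 4.65e-10). Cdca3 rose by 0.60, Aurkb by 0.58, Ube2c by 0.52 and Cdk1 by 0.48. With DESeq2 in place of edgeR 1 gene was called higher, and with the gate limits doubled 7 were. Of all tested genes, 100 of 17889 and 378 of 11414 were called higher in these fits. The direction rested on single pools: 39 of the 40 genes were above 0 with a median of 0.31, against 18 with a median of -0.02 without the WT pool of library 1 and 17 with a median of -0.03 without the IkBKO pool of library 2. B cell markers went from 105.1 CPM in WT to 240 CPM in IkBKO cells in library 1 and from 149 to 286 CPM in library 2, and granulocyte-monocyte markers from 745 to 1192 CPM and from 471 to 1127 CPM. Stem cell markers went from 155 to 50.4 CPM and from 286 to 98.8 CPM. None of these lists had a gene at 0, and their part was not tested.

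The calls overlapped between these 3 gates, which share cells. All 15 genes called higher in the Dntt gate were among the 22 called higher in both the Mecom and the Flt3 gate. They were Ccnb1, Ccnb2, Ccna2, Cdk1, Cks2, Top2a, Cenpa, Aurkb, Birc5, Cdca8, Plk1, Tacc3, Kif2c, Ube2c and Cdca3. They thus hold all 5 cyclin and Cdk1 genes and all 3 of the chromosomal passenger complex. With DESeq2, 7 genes were called higher in the Mecom gate and 19 in the Flt3 gate. Of all tested genes, DESeq2 called 227 of 19346 and 631 of 19263 higher there. Without the block, no member was called in any of the 3 gates. Of all tested genes, 53 of 12975, 4 of 12946 and 125 of 11851 were then called. At an unadjusted p of at most 0.05 there were 8 members in the Mecom, 22 in the Flt3 and 1 in the Dntt gate. Of all tested genes, 8.99%, 11.3% and 12.9% reached it.

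In the Mpo gate, the granulocyte-monocyte side, no gene of the 40 was called in either direction. The test called few genes of any kind there, 0.164% higher and 0.138% lower, and 2 of the 40 had an unadjusted p of at most 0.05, against 4.26% of all tested genes. DESeq2 called none of the 40 either, and 15 of all 17983 tested genes higher and 20 lower. The summed level was 2846 and 2638 CPM in WT and IkBKO cells of library 1 and 3839 and 4226 CPM in library 2, so the genotypes differed in opposite directions in the 2 libraries. The median log2 fold change was 0.01. Cenpa had the largest value, 0.49 ± 0.14 (SE, edgeR adjusted p = 0.517), and Ccnb1 stood at 43.2 and 50.3 CPM in library 1 and at 46.2 and 75.0 CPM in library 2. In the WT pool of library 2, neutrophil markers summed to 9003 CPM, against 259 to 815 CPM in the other 3 pools, and their part in these values was not tested.

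In the Pf4 gate, on the megakaryocyte side, none of the 40 was called either, with 0.73% of all tested genes called in each direction and 2 of the 40 at an unadjusted p of at most 0.05, against 10.5% of all tested genes. DESeq2 called none. The median log2 fold change was 0.15, and the summed level was 3505 and 3215 CPM in library 1 and 3108 and 3727 CPM in library 2. With gate limits set per 10000 UMIs of the cell, 5 genes were called higher, where 116 of all 10228 tested genes were.

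In the Car1 gate, on the erythroid side, 1 gene was called lower and none higher, where 1.79% of all tested genes were called higher and 1.67% lower. Birc5 went from 259 CPM in WT to 154 CPM in IkBKO cells in library 1 and from 297 to 216 CPM in library 2, a log2 fold change of -0.61 ± 0.16 (SE, edgeR adjusted p = 0.00742). The 9 WT cells of library 2 held 58 Birc5 UMIs. Red cell markers, which are globins and other late erythroid genes, summed to 2575 and 1985 CPM in the WT pools of this gate and to 14.2 and 121 CPM in the IkBKO pools, with none of the 6 at 0 over the gate. Without the cells high in mature lineage markers, the median log2 fold change of the 40 genes went from -0.08 to 0.10. Of all 9277 genes tested then, 109 were called higher and 55 lower. The Birc5 call was lost there, and none of the 40 was called. It was also lost without the block, with any 1 pool left out, with DESeq2, with cells of 1 gate and with thinned cells.

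**Figure D2:**
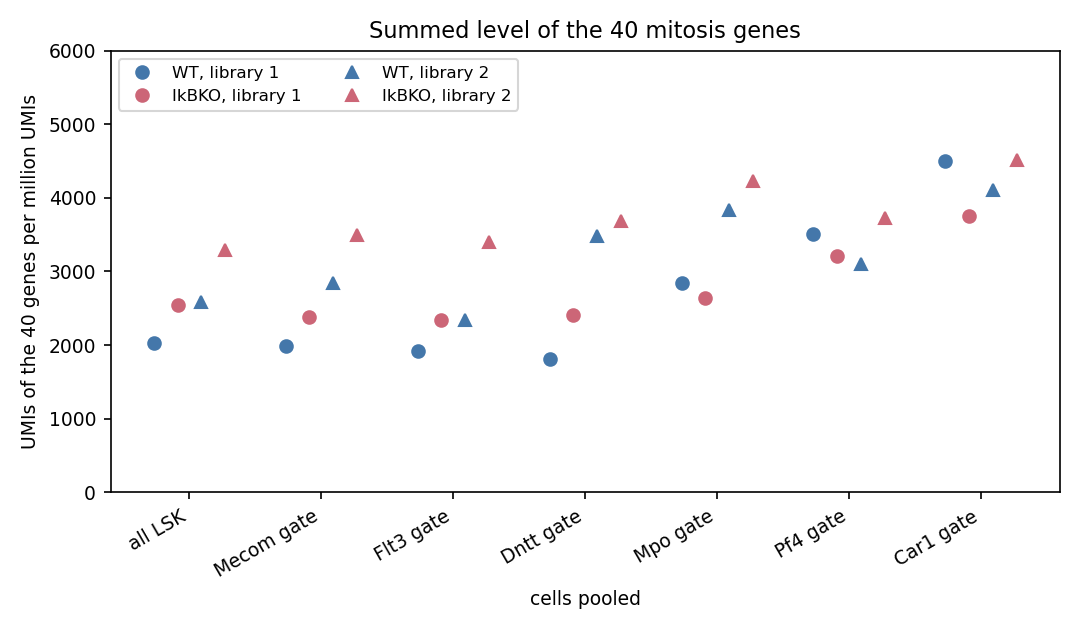
Summed level of the 40 mitosis genes, in CPM, for each genotype (blue WT, red IkBKO) and library (circles 1, triangles 2) over all LSK cells and within each gate. IkBKO lies above WT of the same library in the first 4 columns, while in the Mpo, Pf4 and Car1 gates library 1 has WT above IkBKO and library 2 the reverse.

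Whether the genotype difference itself differed between gates was tested in a joint fit of 24 pools, with cells that passed exactly 1 gate. Over the 6 gates together, 4 of the 40 genes were called, where 1.41% of all 12373 tested genes were. The fold changes given here come from separate fits to those same cells. For Cdca3 (edgeR adjusted p = 0.00303) the log2 fold change was 0.50 in the Mecom, 1.14 in the Flt3 and 0.57 in the Dntt gate, and -0.12 in the Mpo, 0.22 in the Pf4 and -0.34 in the Car1 gate. Tacc3 (edgeR adjusted p = 0.0363) went from 0.43, 1.03 and 0.38 to -0.02, -0.29 and -0.15 in the same order. Aurkb (edgeR adjusted p = 0.037) went from 0.30, 0.94 and 0.53 to -0.08, -0.18 and -0.28, and Birc5 (edgeR adjusted p = 0.047) from 0.54, 0.98 and 0.39 to -0.05, 0.02 and -0.37. For each of the 4, the values in the first 3 gates lay above those in the last 3.

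For the other 36 genes, a difference between gates was not shown, so the lack of calls in the Mpo, Pf4 and Car1 gates is not by itself a difference from the Mecom gate. Set against the Mecom gate 1 gate at a time, no member was called by edgeR. At an unadjusted p of at most 0.05 there were 11 for the Flt3, 1 for the Dntt, 3 for the Mpo, 5 for the Pf4 and 6 for the Car1 gate, against 9.11%, 5.26%, 3.76%, 2.84% and 7.16% of all tested genes at that p. After adjustment 1.03%, 0.129%, 0.0323%, 0% and 0.0162% of all tested genes were called. DESeq2 called none of the 40 in these pairs either, and 5 over the 6 gates together. Of all 20445 genes tested, it called 0 to 92 in the pairs and 200 over the 6 gates. The 4 calls became 0 without the WT pool of library 1, 2 without the IkBKO pool of library 2 and 8 without the IkBKO pool of library 1.

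By the mean over the 4 pools, mitosis genes were highest in the Car1 gate, followed by the Mpo and Pf4 gates, which lay close together. In cells of exactly 1 gate the summed level, as the mean of the 4 pools, was 2053 CPM in the Flt3, 2312 in the Mecom, 2698 in the Dntt, 3277 in the Pf4, 3380 in the Mpo and 3940 CPM in the Car1 gate. The pools ranged from 1710 to 2922 CPM in the Mecom gate and from 2817 to 3545 CPM in the Pf4 gate. They ranged from 2767 to 3998 CPM in the Mpo gate and from 3009 to 4685 CPM in the Car1 gate. In the Dntt gate they ranged from 1757 to 3476 CPM and in the Flt3 gate from 1336 to 2938 CPM. Neighbours in this order thus overlapped, and so did some gates further apart. In library 1 the Pf4 gate lay above the Mpo gate in both genotypes. Among WT cells of library 2 the Car1 gate, with 5 cells, stood at 3009 CPM. That lay below the Pf4 (3218 CPM), Dntt (3317 CPM) and Mpo (3998 CPM) gates. By that mean, 21 of the 40 genes were highest in the Car1, 10 in the Mpo and 7 in the Pf4 gate, and 32 were lowest in the Flt3 gate.

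Against the Mecom gate, 34 genes were called higher in the Car1 gate and none lower, where 20.7% of all tested genes were called higher and 27.6% lower. Cks2 stood at 157.5 and 186.0 CPM in WT and IkBKO cells of library 1 and at 201.2 and 217.1 CPM in library 2 in the Mecom gate. In the Car1 gate it stood at 601.8, 512.7, 519.2 and 538.5 CPM in the same order, with no overlap. The log2 fold change was 1.73 ± 0.12 (SE, edgeR adjusted p = 1.53e-11). Ccnb1 was higher by 1.82, Cdca3 by 1.47, Birc5 by 1.43 and Aurkb by 1.17. The WT pool of library 2 had 5 cells here, and without the WT pool of library 1, 5 genes were called.

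Against the Mecom gate, 33 genes were called higher in the Mpo gate and none lower, where 29.6% of all tested genes were called higher and 31.7% lower. The median log2 fold change was 0.82. Cdca3 was higher by 1.41 ± 0.11 (SE, edgeR adjusted p = 5.69e-12), Aurkb by 1.39, Tacc3 by 1.21, Cks2 by 1.30 and Cdk1 by 1.11. In the Pf4 gate 24 genes were called higher, against 12.1% of all tested genes, and none lower, against 15.1%. Cks2 had the smallest p, at 0.92, followed by Cdk1 at 0.72, Birc5 at 0.82, Cdca8 at 0.69 and Aurkb at 0.65. Without the WT pool of library 1, 9 genes were called in the Pf4 gate.

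The Dntt gate was closer to the Mecom gate, with 17 genes called higher and none lower, where 16.7% of all tested genes were called higher and 16.6% lower. The 5 called genes with the smallest p here are named in that order. Kif23 was higher by 0.56 ± 0.11 (SE, edgeR adjusted p = 8.62e-05), Ect2 by 0.63, Bub1b by 0.49, Aurkb by 0.49 and Tacc3 by 0.47. Kif23 stood at 37.6, 36.4, 63.3 and 49.0 CPM in the Mecom gate and at 42.0, 58.1, 81.8 and 66.7 CPM in the Dntt gate (WT and IkBKO of library 1, then of library 2). Without the IkBKO pool of library 2, 4 genes were called in this comparison. The Flt3 gate did not differ by call: 0 genes were called in either direction by edgeR or by DESeq2, against 6.56% and 4.57% of all tested genes, with 1 gene at an unadjusted p of at most 0.05, against 22.5% of all tested genes. The direction turned with the gate limits: 8 of the 40 were above 0 with a median of -0.14 as gated here, and 34 with a median of 0.14 with limits per 10000 UMIs of the cell.

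Counts per cell showed how the difference was spread over cells. To set depth equal, each of the 16280 cells with at least 5000 UMIs was thinned to 5000, and the 1749 shallower cells were left out (188 WT and 102 IkBKO cells of library 1, 956 and 503 of library 2). A cell with at least 10 UMIs of the 40 genes was placed in an upper range. It is a range and not a cell type or a cycle phase, and cells near its limit, at 8 to 11 UMIs, made up 6.03% of WT and 9.66% of IkBKO cells in library 1 and 4.24% and 5.96% in library 2. The upper range held 20.5% of WT cells (95% exact Clopper-Pearson interval 19.1 to 21.8) and 31.9% of IkBKO cells (30.4 to 33.4) in library 1. In library 2 it held 21.8% (20.5 to 23.1) and 33.1% (31.8 to 34.4). The intervals cover counting error only. The 2 WT values lay close together and apart from the 2 IkBKO values, with ratios of 1.56 and 1.52. With 2 pools against 2, an exact permutation test cannot give a two-sided p below 0.333. Without thinning the shares were 33.9% and 55.3%, and 24.02% and 42.2%.

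**Figure D3:**
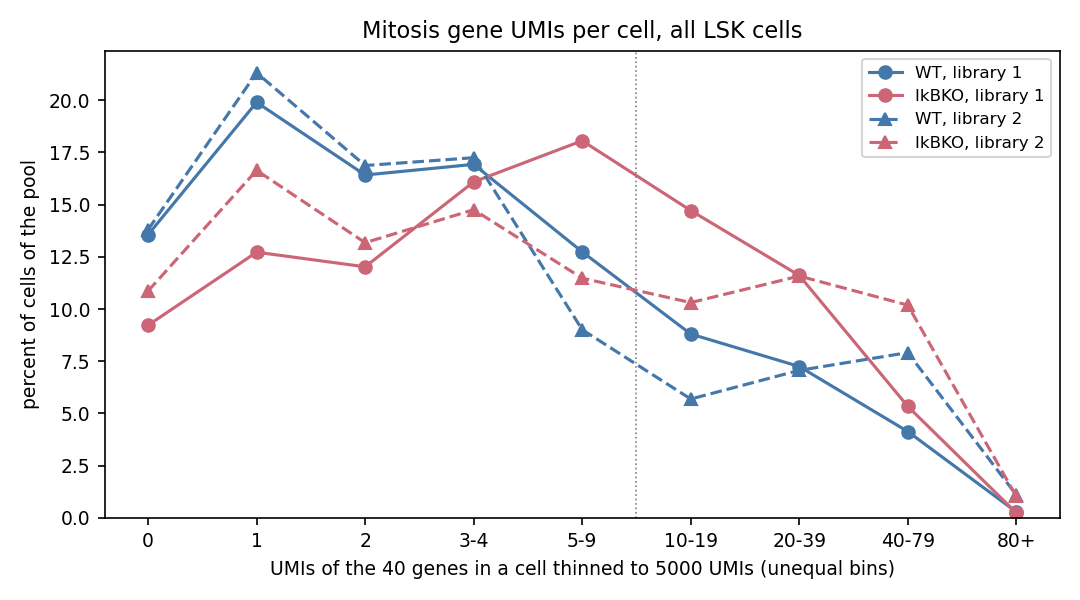
Percent of cells of each pool (y axis) by the number of UMIs of the 40 mitosis genes in a cell thinned to 5000 UMIs (x axis, unequal bins); blue is WT, red IkBKO, circles with solid lines library 1, triangles with dashed lines library 2, and the dotted line marks the limit of 10 UMIs. Within each library, the IkBKO pool has fewer cells than the WT pool in the bins below 5 UMIs and more in the bins from 5 to below 80. At 80 and more UMIs the genotypes of a library lie close together.

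Over all LSK cells, cells in the upper range did not carry more of this RNA in IkBKO than in WT. They held 27.7 UMIs of the 40 genes on average in WT and 25.6 in IkBKO cells of library 1, and 38.4 and 33.7 in library 2, ratios of 0.924 and 0.878. Within gates, library 1 first, the ratio was 0.878 and 0.922 in the Flt3 and 0.892 and 0.958 in the Pf4 gate. It was 1.04 and 0.869 in the Mecom, 1.05 and 0.894 in the Dntt and 0.964 and 1.17 in the Mpo gate. In the Car1 gate it was 1.06 and 1.32, with 6 upper range WT cells in library 2. The part of the cell mix in these ratios was not tested. Within the upper range over all LSK cells, 30 of the 40 genes were lower in IkBKO cells in both libraries. The 6 that were higher in both were Ccnb1, Cenpa, Plk1, Tacc3, Kif2c and Cdca3. In the lower cells so set, 34 genes were higher in both libraries and 2, Hjurp and Kif23, were lower. Since genes of the same list set the ranges, these directions are a description. Free RNA, which adds UMIs to cells that do not express a gene, was not tested as a part of the lower range values.

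The share of cells in the upper range differed between gates. In the Flt3 gate it was 19.3% of WT and 31.2% of IkBKO cells in library 1 and 20.6% and 34.6% in library 2. In the Mecom gate it was 19.96% and 24.2%, and 22.6% and 32.1%. In the Dntt gate it was 18.6% and 25.6%, and 30.01% and 40.04%. In both of these gates the intervals of the genotypes overlapped in library 1 and not in library 2. All intervals here cover counting error of cells only, so whether they overlap is no test of the genotypes. In the Mpo gate the WT share was the higher one in both libraries, with 48.4% and 43.9%, and 67.5% and 62.2%, with overlapping intervals. In the Pf4 gate the values were 34.2% and 35.9%, and 29.1% and 35.8%, again overlapping. In the Car1 gate the share was 63.3% in WT and 41.8% in IkBKO cells of library 1, and 75.0% of 8 WT cells against 60.5% in library 2, where the intervals overlapped. The IkBKO over WT ratio thus ran from 1.62 and 1.68 in the Flt3 gate to 0.66 and 0.81 in the Car1 gate.

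**Figure D4:**
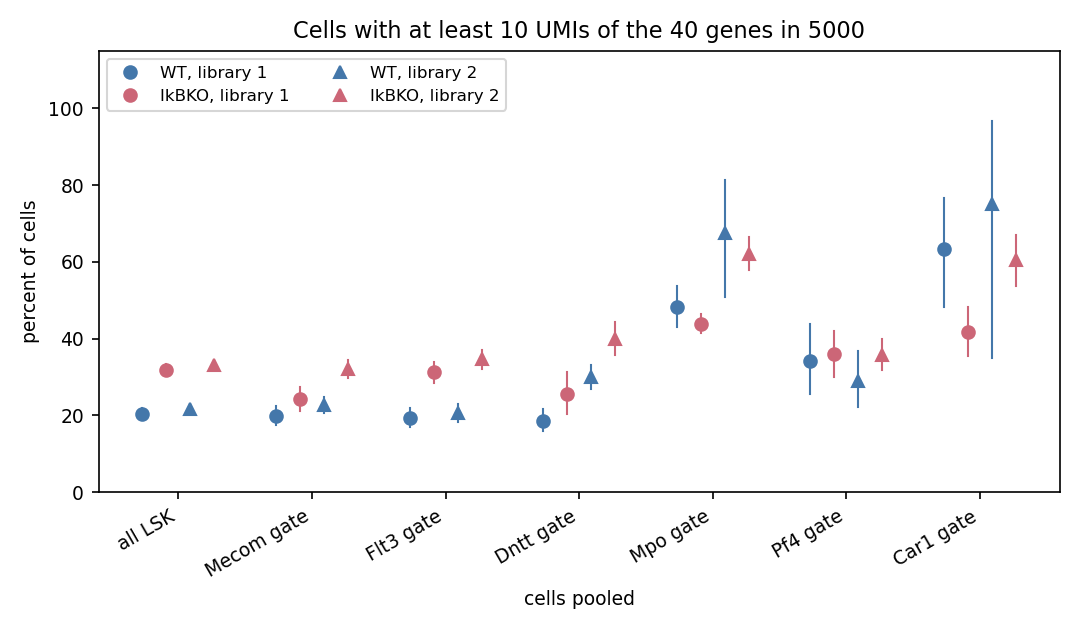
Percent of cells with at least 10 UMIs of the 40 mitosis genes after thinning to 5000 UMIs (y axis), for each genotype (blue WT, red IkBKO) and library (circles 1, triangles 2) over all LSK cells and within each gate; bars are 95% exact Clopper-Pearson intervals. The bars cover counting error only. IkBKO lies above WT of its library over all cells and in the Mecom, Flt3 and Dntt gates. It lies below WT in the Mpo and Car1 gates, where the WT pool of library 2 has wide intervals.

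Hjurp stood apart from the other 39 genes in where its RNA lay. For each gene, the share of its UMIs in cells with at least 10 UMIs of the other 39 genes was taken. The median over the 40 genes was 83.0%, and the range ran from 48.0% for Hjurp to 96.5% for Hmmr, a spindle protein. The next lowest were Cks2 at 65.2% and Ckap2 at 68.1%, followed by Kif23 at 68.3%. In the upper cells Hjurp stood at 139 and 86.6 CPM in WT and IkBKO cells of library 1 and at 208 and 142 CPM in library 2. In the lower cells it stood at 63.7 and 40.4 CPM, and at 69.5 and 45.5 CPM. Hjurp was thus lower in IkBKO cells of both libraries in both ranges. Its log2 fold change within gates was -0.42 in the Mecom, -0.39 in the Flt3, -0.42 in the Dntt, -0.35 in the Mpo, -0.40 in the Pf4 and -0.47 in the Car1 gate, and the last 3 did not pass. Between gates the difference was not called (edgeR adjusted p = 0.982). Hjurp lies at chr1:88262471-88277633 on the minus strand of mm10, with no overlapping gene in the annotation.

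**Figure D5:**
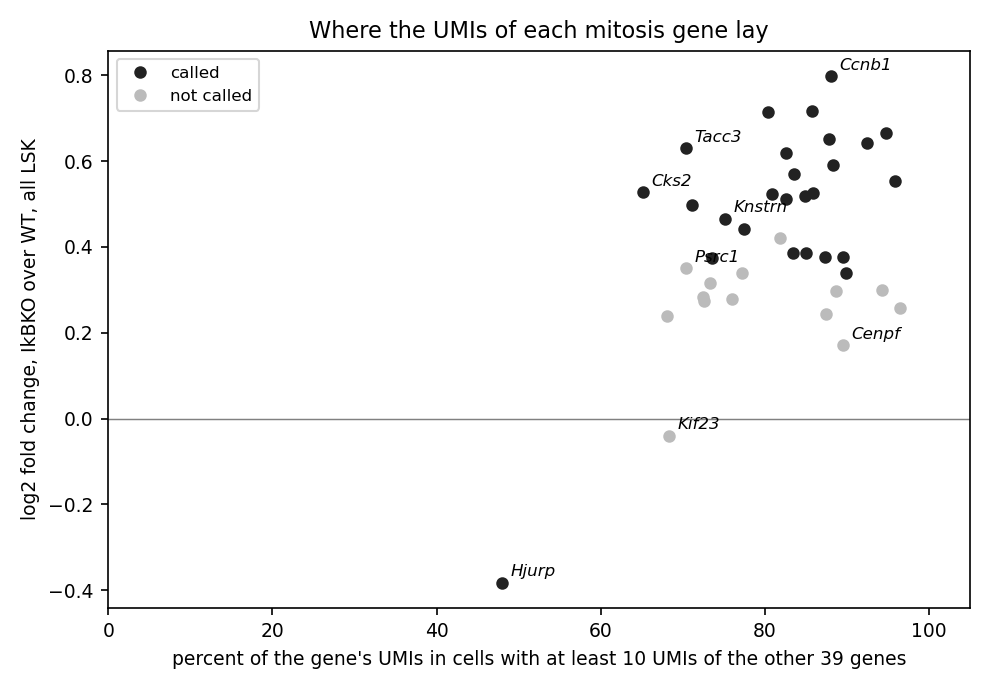
Log2 fold change over all LSK cells, IkBKO over WT (y axis), against the percent of a gene's UMIs in cells with at least 10 UMIs of the other 39 mitosis genes (x axis), 1 point per gene, black where the edgeR adjusted p is at most 0.05. Hjurp sits alone at 48.0% and -0.38, and the other 39 genes lie between 65.2% and 96.5%.

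A second list of 68 further mitosis genes, with no gene of the 40, was counted in the same fits. Over all LSK cells 33 were called higher and none lower in IkBKO cells, against 7.13% and 6.19% of all tested genes. The median log2 fold change of the 68 was 0.35. Within the Mecom gate 21 were called higher and 1 lower, against 6.2% and 4.37%. Within the Flt3 gate there were 37 and 1, against 10.9% and 8.98%, and within the Dntt gate 11 and 0, against 6.81% and 5.95%. In the Mpo gate none was called, against 0.164% and 0.138%, and in the Pf4 gate none, against 0.73% in each direction. In the Car1 gate 3 were called lower and none higher, against 1.67% and 1.79% of all tested genes. The gene called lower in both the Mecom and the Flt3 gate was Wee1, the kinase that holds Cdk1 inactive, at log2 fold changes of -0.28 and -0.37.

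By role over all LSK cells, 8 of 15 kinetochore and checkpoint genes of that list rose, led by Cenpw, Spc24 and Ska1 with log2 fold changes of 0.66, 0.56 and 0.64. Of 14 kinesin and spindle genes 6 rose, with Kif15 at 0.48, Kif20a at 0.51 and Kif4 at 0.44. Of 10 condensin and cohesin genes, which compact and hold chromosomes, 5 rose, with Ncapg at 0.48, Cdca5 at 0.40 and Espl1 at 0.53. Of 13 kinases and phosphatases of entry and exit 7 rose, among them Melk at 0.58, the Cdk1-activating phosphatase Cdc25c at 0.61 and Pkmyt1, which restrains Cdk1, at 0.41. Among the cytokinesis genes, Racgap1 rose by 0.45 and Cit (citron kinase) by 0.40. Among 11 genes that control the transcription of mitosis genes, 4 rose. E2f8, a repressor of the E2F family, led with 0.73 ± 0.08 (SE, edgeR adjusted p = 0.00684), followed by Mybl2 (B-Myb) with 0.55 and Foxm1, a main activator of G2 and M phase genes, with 0.54.

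Against the Mecom gate, 50 of 68 were called higher and 1 lower in the Mpo gate, against 29.6% and 31.7% of all tested genes. In the Car1 gate there were 48 and 3, against 20.7% and 27.6%, and in the Pf4 gate 24 and 1, against 12.1% and 15.1%. In the Dntt gate there were 21 and 1, against 16.7% and 16.6%, and in the Flt3 gate none, against 6.56% and 4.57%. The gene called lower in the Mpo gate was Rbl2 (p130, the pocket protein of the DREAM complex that represses these genes in resting cells), at -0.80. Rbl2 was also called lower in the Car1 gate, at -0.68, together with Wee1 and Cep55, and in the Dntt gate, at -0.50. In the Pf4 gate Wee1 was called lower, at -0.32. In the Car1 gate the 3 genes lower in IkBKO than in WT cells were Mybl2 at -1.14, Ncapg2 at -0.91 and Fbxo5, an inhibitor of the anaphase-promoting complex, at -0.78.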

How the data were processed

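The deposited matrices hold raw UMI counts per gene and barcode and name Cell Ranger 6.0.0 per the file headers. Cell Ranger 7.0, Seurat 4.3.0 and the build mm10 are named in the submitters' processing notes. Genotype and quality call per barcode were taken from the deposited cell table, whose rules these sources do not state. All 18029 passing cells were used, doublets were not called again, and no cell type annotation was used.

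Counts were summed per genotype and library, over all cells and within each gate, and tested in R 4.3.3 with edgeR 4.0.16 (quasi-likelihood F test, filterByExpr, TMM, robust), two-sided, with library as a block and Benjamini-Hochberg adjustment over all genes tested. The block was used because each library held both genotypes; deviations from the genotype means correlated at 0.563 within a library over 14742 genes. Gates were compared in 1 fit of 24 pools of cells in exactly 1 gate, with a term for each pool and gate-by-genotype terms. Fold changes are IkBKO over WT, or a gate over the Mecom gate. All 40 members passed the filter on low counts in every main fit; with thinned cells 39 did in the Pf4 and 38 in the Car1 gate. Thinning drew 5000 UMIs per cell without replacement, and intervals are at 95% confidence. The steps were tested on simulated data. Alternatives covered DESeq2 1.42.0, scaling, filters, gates, depth, cells of other lineages, the block and single pools.

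The members and gene lists were chosen with earlier results of these data known. All members were described over all LSK cells, and within or between gates the 5 called members with the smallest p per direction, plus those whose genotype difference differed between gates. Of the other mitosis genes, up to 3 called genes per role and direction were named. The result of 1 such gene is not reported here.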

Additional observations from a re-analysis of the deposited data

Results flagged for a closer look

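The genotype difference of 4 mitosis genes differed between the 6 gates in the joint edgeR fit: Cdca3 (adjusted p = 0.00303), Tacc3 (adjusted p = 0.0363), Aurkb (adjusted p = 0.037) and Birc5 (adjusted p = 0.047). In the cells of exactly 1 gate used there, the log2 fold change of each was between 0.30 and 1.14 in the Mecom, Flt3 and Dntt gates and between -0.37 and 0.22 in the Mpo, Pf4 and Car1 gates.

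Barcodes that failed the deposited quality call entered no comparison and also held RNA of mitosis genes. In library 1, 1639 failed barcodes held 4195 CPM of the 40 genes together, against 2335 CPM in passing cells. In library 2, 14441 failed barcodes held 3060 CPM, against 3004 CPM. Genotype is not given for them, and what sets them apart was not tested.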

How the results depend on the processing

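The numbers of mitosis genes called rest on 4 pools and on the replicate block, and where a count changed the cause was not tested unless fewer samples or genes entered the fit. Without the replicate block 0 mitosis genes were called higher and 0 lower in IkBKO cells over all LSK cells and in each of the 6 gates. Of all tested genes, 0 were then called over all LSK cells. In the gates there were 53 in the Mecom, 4 in the Flt3, 125 in the Dntt, 19 in the Mpo, 1 in the Pf4 and 32 in the Car1 gate. The counts that follow are of mitosis genes unless stated. Leaving out 1 pool, in fits without the block whose lone pool is assumed to vary like the others, gave 0 to 0 genes higher over all LSK cells and in the Mecom gate, 0 to 2 in the Flt3 gate, 0 to 6 in the Dntt gate, and 0 to 0 lower in each of these and the Car1 gate. In the joint fit it gave 5 to 35 higher in the Car1, 4 to 21 in the Dntt, 27 to 34 in the Mpo and 9 to 29 in the Pf4 gate against the Mecom gate, 0 to 8 genes whose difference differed between gates, and 0 to 1 for the Car1 gate alone. Over all LSK cells, DESeq2, RLE scaling, no low-count filter, thinned cells and cells without other-lineage markers gave 24 to 34 higher and 1 lower. Of all 13454 to 21518 genes tested, those fits called 922 to 1796 higher and 589 to 1385 lower.

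DESeq2 gave 7 higher and 0 lower in the Mecom, 19 and 0 in the Flt3 and 1 and 0 in the Dntt gate. It gave 0 lower in the Car1 gate, and 11 higher in the Dntt against the Mecom gate. Of all tested genes, it called 227 of 19346, 631 of 19263 and 100 of 17889 higher in the first 3 gates. For the Dntt against the Mecom gate it called 1512 of 20445 higher. With cells of 1 gate 10 were higher in the Mecom (all genes 333 of 11905) and 0 lower in the Car1 gate (17 of 8899). With thinned cells 14 were higher and 2 lower in the Mecom (594 and 426 of 11881). There 0 were lower in the Car1 gate (31 of 6674). Without other-lineage cells 0 were lower in the Car1 gate (55 of 9277). With doubled limits 7 were higher in the Dntt (378 of 11414) and 2 lower in the Car1 gate (155 of 8938). With gates per 10000 UMIs 2 were lower in the Mecom (all genes 402 of 12266) and 2 in the Car1 gate (182 of 9189). In the Pf4 gate 5 were higher (116 of 10228). Against the Mecom gate 1 was higher in the Flt3 (946 of 12486), 27 higher in the Dntt (2306) and 1 lower in the Pf4 gate (2010). Between gates 1 gene differed, where 119 of all 12486 did. RLE scaling gave 2 lower in the Car1 gate (all genes 185 of 9345) and 1 lower in the Pf4 against the Mecom gate (2236 of 12373). With no low-count filter 2 were lower in the Mecom gate (885 of 19346). Against the Mecom gate 26 were then higher in the Dntt (1988 of 20445) and 2 lower in the Flt3 gate (744). Between gates 20 differed (696 of 20445), 5 for the Flt3 (321) and 3 for the Car1 gate alone (84). The replicate block within gates gave 1 lower in the Flt3 against the Mecom gate (617 of 12373). It gave 7 that differed between gates (275), and 2 for the Flt3 gate alone (176).

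The log2 fold change of Ube2c in the Dntt gate ranged from -0.025 to 1.25 with 1 pool left out, and reversed without WT replicate 1 (-0.023) and without IkBKO replicate 2 (-0.025), with no call in any of them. The mean ratio of upper range shares, 1.54, was 1.48 with at least 5 UMIs, 1.45 with at least 20, 1.69 without thinning, and 1.52 to 1.56 with 1 library left out, an alternative chosen after seeing the data. Of the values of single genes under alternatives, 784 kept direction and side of the threshold, 279 lost the call, 18 gained it, 42 with no call changed sign, and 2 called values, those of Ube2c, reversed. Depth limits the Mpo and Car1 gates, where the WT pool of library 2 held 40 and 9 cells.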
